A study of Rattus norvegicus with 6 samples.

Results

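The retinal messenger RNAs of 10 genes of inflammatory signalling, the NF-κB subunit genes Nfkb1, Nfkb2 and Relb, the NF-κB inhibitor genes Nfkbia and Tnfaip3, the chemokine genes Ccl2 and Cx3cl1, the adhesion molecule genes Icam1 and Vcam1 and the cytokine gene Il18, are described here out of 28358 genes in the tables. They were chosen by name, and all 10 were found. The RNA came from neuroretinas of Goto-Kakizaki (GK) males, rats of an inbred non-obese strain that develops type 2 diabetes spontaneously, aged 14 months. In 3 samples the eye had received 5 µL of biodegradable PLGA microspheres carrying 6.2 µg of spironolactone, a mineralocorticoid receptor antagonist, injected into the vitreous, and in the other 3 samples it had received non-loaded microspheres. Retinas were collected 2 months after that injection. Both groups therefore share the diabetic strain, the age, the injection and the polymer, and the comparison asks what the loaded drug adds. No retina of a non-diabetic strain or of an uninjected eye was analysed here. Whether the samples came from separate animals is not stated in the labels, so the p-values reflect sample-to-sample spread, a part of which may be technical.

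NF-κB is a family of dimeric transcription factors that inhibitor proteins hold in the cytoplasm until cytokine, pathogen or stress signals trigger the inhibitors' degradation. Freed dimers enter the nucleus, bind κB elements and raise the transcription of chemokines, endothelial adhesion molecules and their own inhibitors, which gives the pathway its negative feedback. In the diabetic retina the pathway is studied in vascular endothelium, Müller glia and microglia, where chemokines and adhesion molecules bring leukocytes to the vessel wall.

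Libraries held 10575220, 12589466 and 11174928 expected counts with spironolactone, and 9996198, 11572836 and 11966769 with non-loaded microspheres. Expected counts are the reads the authors' software assigned to a gene. Values are given as CPM, which are counts scaled to a common library size with TMM (a correction for library composition) and serve to compare libraries, or as TPM, which are also divided by transcript length and serve to compare genes. As a check of the tissue label, 9 matched rod genes were read out, and their summed level was 35842 to 40227 CPM with spironolactone and 43442 to 54716 CPM with non-loaded microspheres. Of the rod genes, 4 of 9 tested fell and 0 rose, and the ranges of the sums did not overlap. The part of this rod difference in the values that follow was not tested.

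No change in the 10 genes passed the test between the groups, and 1 of them, Ccl2, was too rare to test. Of the 9 that passed the filter on low counts, 0 rose and 0 fell at an adjusted p under 0.05, and 0 had an unadjusted p under 0.05 (edgeR quasi-likelihood test, adjusted over 13242 genes). Over all tested genes, 2.63% passed the adjusted threshold (1.87% higher and 0.763% lower) and 15.8% had an unadjusted p under 0.05. Limma-voom also called 0 of the 9, and DESeq2 called 0 of the 4 to which it gave an adjusted p, with 0 of the 9 under an unadjusted p of 0.05 in each. DESeq2 gave no adjusted p for Nfkb2, Relb, Icam1, Vcam1 and Il18. The fitted log2 fold changes lay above 0 for Nfkb1, Relb, Nfkbia, Tnfaip3 and Il18 and below 0 for Nfkb2, Cx3cl1, Icam1 and Vcam1. Their median was 0.06, beside −0.0027 over all tested genes. In CPM the libraries of the groups did not overlap for 1 of the 9 genes, Cx3cl1, and did not overlap for 20.9% of all tested genes. This is a retina homogenate, so fewer cells of a type and less RNA per cell cannot be told apart.

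**Figure D1:**
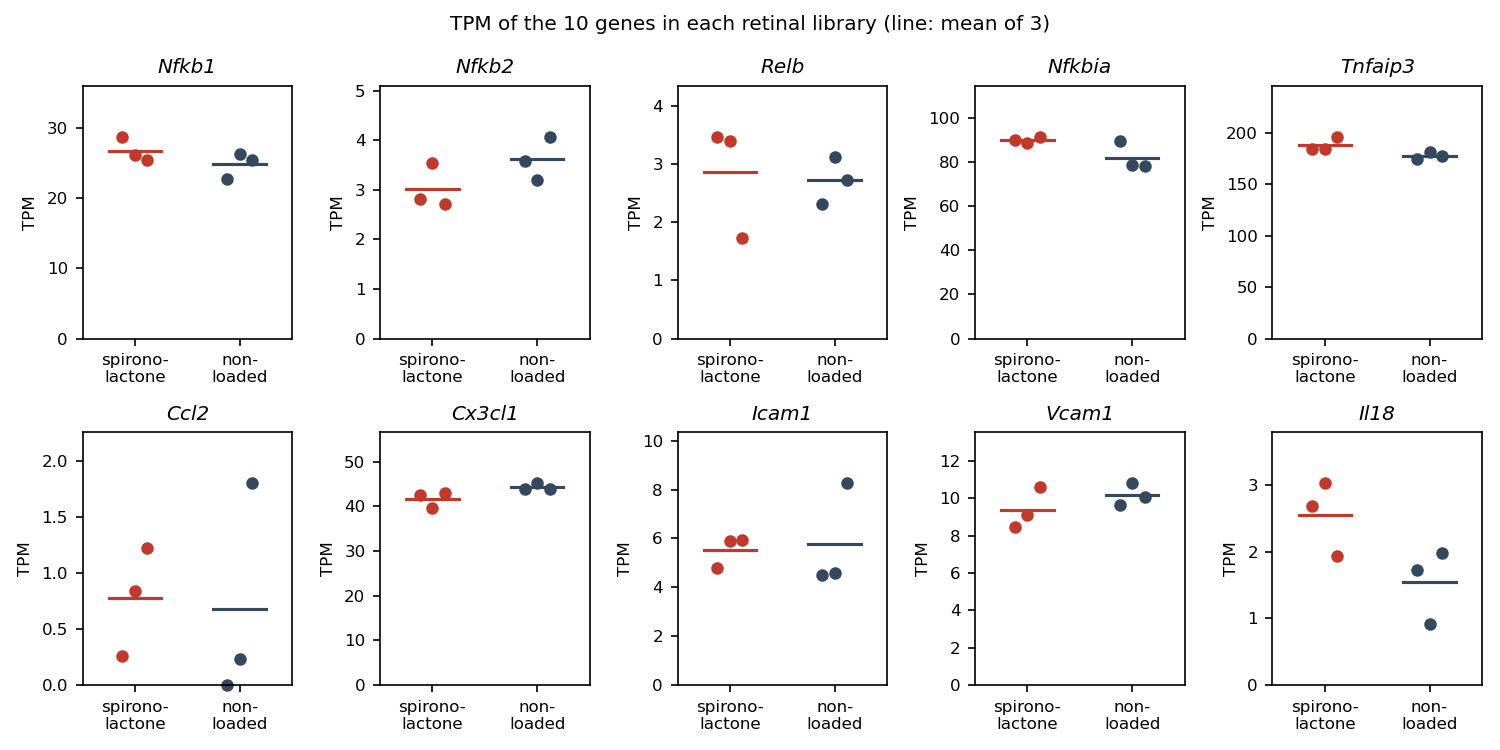
TPM (vertical axes, from 0, with a separate scale per gene) of each of the 10 genes in the 3 spironolactone libraries (red, left) and the 3 non-loaded libraries (dark, right), with a line at the mean of each group. The groups overlap for all genes but Cx3cl1 and Tnfaip3, and Icam1 and Ccl2 are highest in non-loaded replicate 3.

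The 10 genes differed far more from each other than between the groups. By mean TPM over the 6 libraries the order was Tnfaip3 (183 TPM), Nfkbia (85.9), Cx3cl1 (43.0), Nfkb1 (25.7), Vcam1 (9.78), Icam1 (5.66), Nfkb2 (3.33), Relb (2.80), Il18 (2.05) and Ccl2 (0.725). The inhibitor genes were thus the most abundant of the set: the mean TPM of Tnfaip3 was above that of 94.1% of tested genes and that of Nfkbia above 84.0%. Cx3cl1 stood above 66.6% and Nfkb1 above 50.4%, while Vcam1 stood above 27.1%, Icam1 18.8%, Nfkb2 12.2%, Relb 10.4% and Il18 7.51%. From Tnfaip3 down to Nfkb2, no library's TPM of a gene reached that of its neighbour in this order. Below that, the ranges of Nfkb2 (2.71 to 4.08), Relb (1.74 to 3.48), Il18 (0.91 to 3.03) and Ccl2 (0 to 1.80) ran into each other. Among the 9 tested genes the 6 libraries were closest for Tnfaip3, whose highest CPM was 1.13 times its lowest, and for Cx3cl1 (1.17 times) and Nfkbia (1.196 times). They were farthest apart for Il18 (3.29 times), Relb (1.99 times) and Icam1 (1.80 times), while Ccl2, untested, ran over 0 to 8 counts.

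The κB consensus, a degenerate element of 10 bases, was looked for on both strands in RefSeq promoters of the GRCr8 assembly, from 250 bases before to 50 bases after an annotated start. These windows are shown because the κB element is the sequence that NF-κB dimers recognise, with matches in capitals, 5′ to 3′ on the gene's strand. A match had to read GGG, A or G, any base, any base, C or T, C or T, and CC. Elements that depart from this pattern were not counted. GRCr8 is a later build than the rn6 used for the counts.
Nfkb2, chr1:255108334-255108373, plus strand: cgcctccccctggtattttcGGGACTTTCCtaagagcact
Nfkbia, chr6:78597074-78597123, minus strand: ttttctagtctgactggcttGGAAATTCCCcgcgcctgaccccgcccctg
Tnfaip3, chr1:15544005-15544066, minus strand: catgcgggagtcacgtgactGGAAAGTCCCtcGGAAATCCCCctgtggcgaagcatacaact
Vcam1, chr2:206742847-206742896, minus strand: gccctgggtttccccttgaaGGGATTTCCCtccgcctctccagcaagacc
The Nfkb2 element began 20 bases before the start and the Nfkbia element 31 bases before it, on the opposite strand. Tnfaip3 held a pair of opposite-strand elements from 67 and 55 bases before the start, and a further match 170 bases before it that reads as the consensus on both strands. The Vcam1 match, 93 bases before the start, also reads on both strands. Nfkb1 held a match 4 bases into the transcript. Promoters of 8 of the 10 genes were in the table, and 5 of the 8 held a match, beside 2515 of all 33469 promoters (7.51%). The Cx3cl1, Icam1 and Il18 windows held none. A match is a description of the letters in this window and not of binding.

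**Figure D2:**
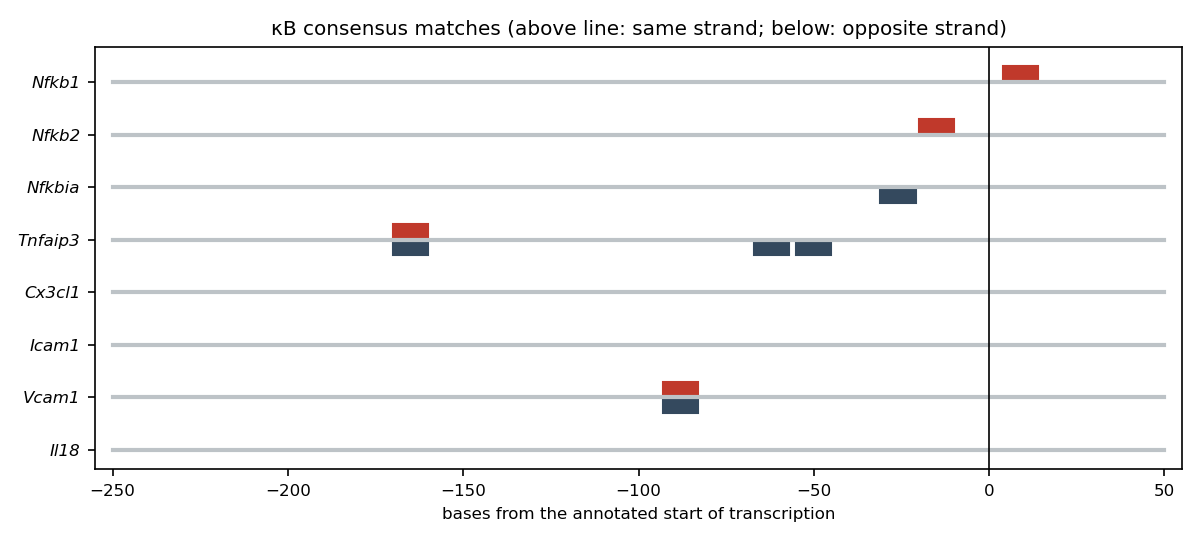
Positions of κB consensus matches (boxes, to scale) in the promoters of 8 genes, in bases from the annotated start of transcription (horizontal axis). Boxes above a line are on the gene's strand and boxes below it on the opposite strand. Of the 8 promoters, 5 hold a match, and Tnfaip3 has 3 positions.

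Nfkb1 encodes the precursor of the p50 subunit, which pairs with RelA in the canonical pathway. It had 56.8, 53.7 and 51.8 CPM with spironolactone, against 46.5, 55.3 and 50.7 CPM with non-loaded microspheres. The highest library was spironolactone replicate 1 and the lowest non-loaded replicate 1, with the others interleaved. The log2 fold change was 0.09 ± 0.08 (SE; edgeR, adjusted p = 0.661), with a 95% interval of 0.943-fold to 1.196-fold. Nfkb2, the precursor gene of the p52 subunit of the non-canonical pathway, whose κB element lies 20 bases before the start, had 4.39, 5.75 and 4.34 CPM with spironolactone, against 5.77, 5.32 and 6.41 CPM with non-loaded microspheres. Of the spironolactone libraries replicates 1 and 3 lay below every non-loaded library, and replicate 2 lay within their range. Nfkb2 had a log2 fold change of −0.27 ± 0.20 (edgeR, adjusted p = 0.571), with an interval of 0.615-fold to 1.12-fold.

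Relb encodes the usual partner of p52. It was counted 30, 36 and 16 times in the spironolactone libraries, against 19, 31 and 27 times in the non-loaded libraries. Spironolactone replicate 3 was the lowest of all 6 at 1.45 CPM and spironolactone replicate 2 the highest at 2.87 CPM, so the spironolactone group spanned the other. The log2 fold change of 0.06 ± 0.32 (edgeR, adjusted p = 0.960) became negative when a library was left out in 3 of 6 cases: −0.07 without spironolactone replicate 1, −0.11 without spironolactone replicate 2 and −0.05 without non-loaded replicate 1.

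Rela, the gene of the main transactivating subunit, had 27.6, 32.1 and 30.3 CPM with spironolactone, against 35.0, 34.5 and 35.6 CPM with non-loaded microspheres. All 3 spironolactone libraries lay below all 3 non-loaded libraries, but the gene did not pass (log2 fold change −0.22 ± 0.09, edgeR, unadjusted p = 0.0216, adjusted p = 0.218). Such a separation, lower with spironolactone, was seen in 9.48% of all tested genes. The ratio of Nfkb1 to Rela in TPM was 1.27, 1.03 and 1.05 with spironolactone and 0.819, 0.986 and 0.878 with non-loaded microspheres. This ratio was chosen after the values were seen and is given without a test. The ratio of Nfkb1 to Nfkb2 was 10.2, 7.34 and 9.37 with spironolactone and 6.33, 8.16 and 6.21 with non-loaded microspheres, with overlapping groups.

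Nfkbia encodes IκBα, the inhibitor that retains RelA dimers and that NF-κB itself induces, and its promoter window holds 1 κB match. It had 67.4, 69.4 and 70.7 CPM with spironolactone, against 69.4, 62.6 and 59.1 CPM with non-loaded microspheres. Non-loaded replicates 2 and 3 lay below the spironolactone libraries, while non-loaded replicate 1 lay among them. Its log2 fold change was 0.12 ± 0.07 (edgeR, adjusted p = 0.450), with an interval of 0.978-fold to 1.21-fold. Without non-loaded replicate 1 it was 0.18 (unadjusted p = 0.0263, adjusted p = 0.331). In TPM, Nfkbia exceeded Rela 3.97-, 3.51- and 3.80-fold with spironolactone and 3.22-, 2.95- and 2.70-fold with non-loaded microspheres, a ratio also chosen after the values were seen.

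Tnfaip3 encodes a ubiquitin-editing enzyme that ends NF-κB activation downstream of TNF and Toll-like receptors, and is a target of NF-κB, with 3 κB positions in its promoter window. It was the most abundant of the 10 genes, with 2402, 2942 and 2732 counts in the spironolactone libraries and 2178, 2702 and 2665 in the non-loaded libraries. In CPM these were 224, 235 and 247 with spironolactone, against 220, 236 and 219 with non-loaded microspheres, which overlapped. In TPM all 3 spironolactone libraries (183.9, 184.5 and 196.2) lay above the non-loaded libraries (174.5, 181.2 and 177.5). Between the groups the log2 fold change was 0.06 ± 0.06 (edgeR, adjusted p = 0.661), and its interval of 0.958-fold to 1.14-fold was the narrowest of the set.

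Among 26 other genes of NF-κB subunits, inhibitors and upstream kinases, 25 were tested and 0 passed, with a median log2 fold change of 0.05. An unadjusted p under 0.05 was reached by 3 higher genes and 1 lower gene, Rela. The smallest p belonged to Tnip2, whose protein binds the Tnfaip3 product. Tnip2 had 50.5, 53.3 and 51.6 CPM with spironolactone, against 41.4, 39.5 and 47.0 CPM with non-loaded microspheres, with no overlap (log2 fold change 0.28 ± 0.08, edgeR, adjusted p = 0.0903). It passed without non-loaded replicate 3 (adjusted p = 0.0487) and with no filter on low counts (0.0479). Tax1bp1, an adaptor of the Tnfaip3 product, had 423, 417 and 432 CPM with spironolactone, against 372, 397 and 380 CPM with non-loaded microspheres, also with no overlap (0.15 ± 0.05, edgeR, adjusted p = 0.184). A separation of this kind, higher with spironolactone, was seen in 11.4% of all tested genes. Map3k7, the gene of a kinase used in most cells, was listed at 0 in all 6 libraries, so a 0 in these tables need not mean an absent transcript.

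Of 30 matched genes of NF-κB activating ligands, receptors and adaptors, 20 were tested and 0 passed (median log2 fold change 0.05). The ligand genes Tnf, Lta, Ltb and Tnfsf11 were listed at 0 in all 6 libraries, and Il6 was counted at most 2 times. Tnfrsf1a, the main TNF receptor gene, was among those tested. It averaged 9.67 TPM over the 6 libraries and differed by 0.04 ± 0.15 on the log2 scale (edgeR, adjusted p = 0.935). Tlr2, which encodes a receptor for bacterial lipoproteins, had the smallest p of this list. It had 3.64, 6.78 and 5.42 CPM with spironolactone, against 2.83, 3.49 and 3.78 CPM with non-loaded microspheres. Spironolactone replicate 1 lay within the range of the non-loaded libraries, and the other spironolactone libraries lay above them (log2 fold change 0.65 ± 0.25, edgeR, adjusted p = 0.214). Irak2, a kinase gene of Toll-like and interleukin-1 receptor signalling, differed by 0.37 ± 0.19 (edgeR, adjusted p = 0.365).

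Ccl2 encodes the chemokine that draws monocytes through the receptor Ccr2. It was counted 1, 4 and 5 times in the spironolactone libraries, against 0, 1 and 8 times in the non-loaded libraries. The sums were 10 counts with spironolactone (95% Poisson interval 4.80 to 18.4) and 9 counts with non-loaded microspheres (4.12 to 17.1), intervals that cover counting error only. The library with the most counts, non-loaded replicate 3, and the library with none, non-loaded replicate 1, were of the same group. By the one-sided limit of 3 counts, a count of 0 there allows up to 0.304 CPM. Ccl2 was below the filter, so a change in it was not detectable at this depth, and Ccr2 was listed at 0 in all 6 libraries.

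Cx3cl1 encodes fractalkine, a membrane-bound chemokine made by neurons and endothelium whose receptor, Cx3cr1, is carried by microglia. It had 67.2, 65.5 and 70.27 CPM with spironolactone, against 72.0, 76.4 and 70.31 CPM with non-loaded microspheres. All 3 spironolactone libraries lay below all 3 non-loaded libraries, although the closest pair differed only in the decimals. In TPM the values were 42.4, 39.7 and 43.0 with spironolactone and 43.9, 45.2 and 43.9 with non-loaded microspheres. The log2 fold change of −0.11 ± 0.07 did not pass (edgeR, adjusted p = 0.460), and its interval ran from 0.842-fold to 1.02-fold. In all tested genes, 9.48% were lower in every spironolactone library than in every non-loaded library.

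Cx3cr1 had 5.51, 7.50 and 8.49 CPM with spironolactone, against 7.69, 7.15 and 9.79 CPM with non-loaded microspheres, with overlapping groups (−0.20 ± 0.19, edgeR, adjusted p = 0.682). The sheddase gene Adam10, whose product releases fractalkine from the membrane, had 81.1, 82.3 and 84.4 CPM with spironolactone, against 77.4, 68.8 and 69.1 CPM with non-loaded microspheres. Its groups did not overlap, and it did not pass (0.21 ± 0.07, edgeR, adjusted p = 0.125). Adam17, the gene of the other main sheddase, differed by 0.02 ± 0.12 (edgeR, adjusted p = 0.956), a sign that turned when single libraries were left out.

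Most other chemokine genes were too rare to test. Of 51 matched chemokine and chemokine receptor genes, Adam10 and Adam17 included, 14 were tested, 37 were below the filter, and 6 of those were listed at 0 throughout. The highest count among the untested ones was 14, for Ccl3. None of the 14 passed, with a median log2 fold change of 0.05. Ccl6, a myeloid chemokine gene in rodents, had the smallest p. It was counted 16, 14 and 10 times with spironolactone, against 2, 6 and 4 times with non-loaded microspheres, with no overlap (log2 fold change 1.68 ± 0.51, edgeR, adjusted p = 0.0988). With at most 6 counts in a non-loaded library, Ccl6 was kept by the filter only through the spironolactone libraries. The size of its difference and its separation are therefore not independent of that filter. The commonest chemokine gene of this list by TPM was Cxcl14, at a mean of 54.9 TPM, and it differed by 0.24 ± 0.10 (edgeR, adjusted p = 0.243). Cxcl12, a stromal chemokine gene, averaged 8.19 TPM and differed by 0.07 ± 0.13 (edgeR, adjusted p = 0.852). These 2 were named after their values were seen.

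Icam1 encodes the endothelial and glial ligand of the leukocyte β2 integrins. It had 6.35, 8.14 and 8.13 CPM with spironolactone, against 6.17, 6.45 and 11.1 CPM with non-loaded microspheres. Non-loaded replicate 3, with 135 counts, was the highest of the 6, and the other non-loaded libraries lay at the level of spironolactone replicate 1. The log2 fold change was −0.08 ± 0.22 (edgeR, adjusted p = 0.916), with an interval of 0.690-fold to 1.30-fold. Its sign turned with either of these libraries left out. Without non-loaded replicate 3 the log2 fold change was 0.25 (edgeR, adjusted p = 0.628), and without spironolactone replicate 1 it was 0.03. Of the 14 matched microglia markers, 1 rose and 0 fell, beside 1.87% higher and 0.763% lower over all tested genes. The gene that rose was Cd74, an antigen presentation gene, just under the threshold (log2 fold change 1.04 ± 0.27, edgeR, adjusted p = 0.0499). The 14 markers summed to 174, 180 and 175 CPM with spironolactone, against 160, 151 and 197 CPM with non-loaded microspheres. They were thus also highest in non-loaded replicate 3. The part of these markers in the Icam1 value was not tested.

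Vcam1 encodes the ligand of the integrin pair of Itga4 and Itgb1 on activated endothelium, and is also expressed by glia. It is a classical NF-κB target, and its promoter window holds 1 match to the κB pattern used here. It had 11.4, 12.7 and 14.6 CPM with spironolactone, against 13.4, 15.4 and 13.7 CPM with non-loaded microspheres. Spironolactone replicates 1 and 2 lay below all non-loaded libraries, and replicate 3 lay among them. Its log2 fold change was −0.13 ± 0.14 (edgeR, adjusted p = 0.692), with an interval of 0.747-fold to 1.11-fold. Vcam1 was more abundant than Icam1 in all 6 libraries, with a TPM ratio of 1.76, 1.54 and 1.78 with spironolactone and 2.14, 2.37 and 1.22 with non-loaded microspheres.

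The 12 matched endothelial markers summed to 1127 to 1233 CPM with spironolactone and 1151 to 1235 CPM with non-loaded microspheres, overlapping ranges. Most of this sum was Kdr, with 658, 765 and 826 CPM with spironolactone, against 791, 747 and 815 CPM with non-loaded microspheres. The sum is therefore a weak measure of endothelial content. Taken gene by gene, the markers had a median log2 fold change of −0.036, with 5 above 0 and 7 below. Of these 12, only Vwf, the von Willebrand factor gene, passed. It had 570, 410 and 460 counts with spironolactone, against 303, 295 and 370 counts with non-loaded microspheres (log2 fold change 0.55 ± 0.14, edgeR, adjusted p = 0.0404). The part of endothelial content in the Icam1 and Vcam1 values was not tested. Of the 14 matched blood cell markers only Hbb and Cd4 were abundant enough to test, 0 passed, and Cd3d, Ms4a1, Cd79a and Mpo were listed at 0 in all libraries. The other untested ones were rare but not absent. The highest count among them was 15, for S100a9 in spironolactone replicate 1.

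**Figure D3:**
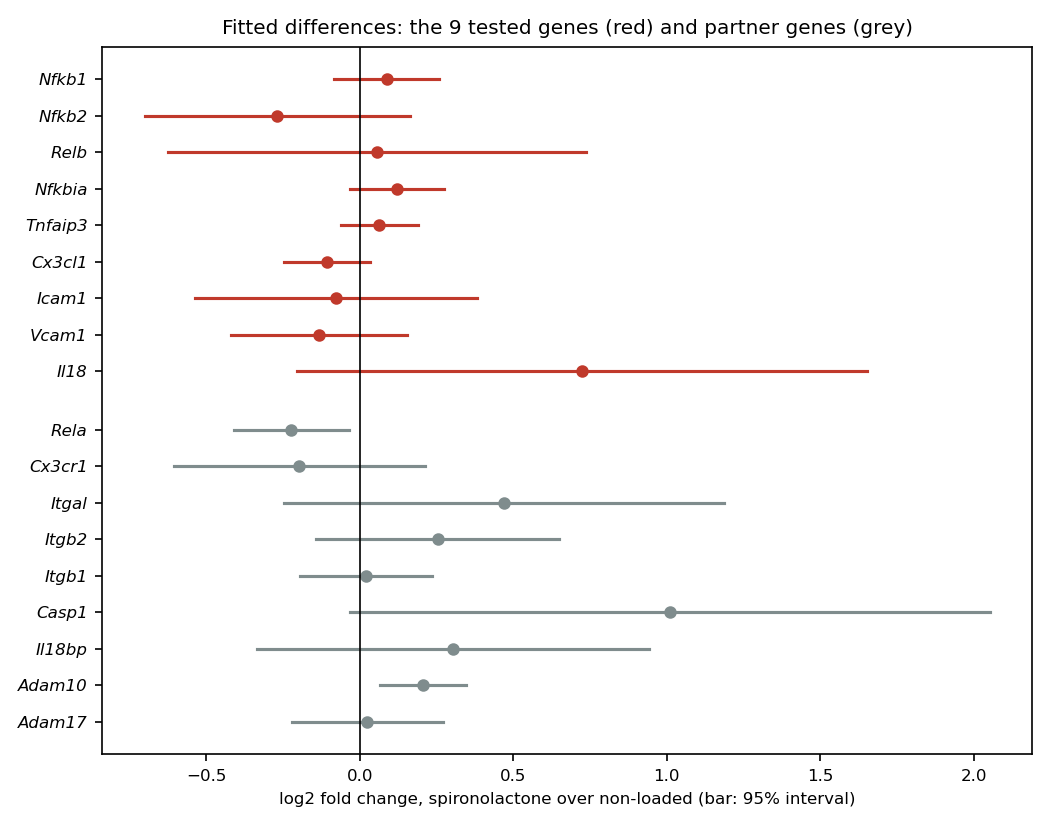
Fitted log2 fold changes (points) with 95% intervals (bars) for the 9 tested genes (red) and for tested partner genes (grey); positive values mean higher with spironolactone. The intervals of the red genes all cover 0, and are narrowest for Tnfaip3, Cx3cl1, Nfkbia and Nfkb1 and widest for Il18 and Relb.

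The integrin genes that pair with these ligands did not pass. Itgal had 2.61, 1.76 and 2.08 CPM with spironolactone, against 1.01, 1.83 and 1.73 CPM with non-loaded microspheres (log2 fold change 0.47 ± 0.34, edgeR, adjusted p = 0.547). Its partner Itgb2 differed by 0.25 ± 0.19 (edgeR, adjusted p = 0.561) and Itgb1 by 0.02 ± 0.10 (edgeR, adjusted p = 0.956), with a sign that turned under alternatives. Itga4 was counted 9, 5 and 10 times with spironolactone, against 0, 1 and 9 times with non-loaded microspheres, and was below the filter. Itgam was not analysed here.

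Of 30 matched genes of other adhesion molecules and integrins, 19 were tested and 0 passed, with a median log2 fold change of −0.02. The selectin genes of activated endothelium were rare, with Sele at 5 to 16 counts and Selp at 1 to 12 counts per library. Jam3, a junctional adhesion molecule gene, had the smallest p: it had 13.9, 12.5 and 11.9 CPM with spironolactone, against 18.0, 15.5 and 17.5 CPM with non-loaded microspheres, with no overlap (log2 fold change −0.41 ± 0.13, edgeR, adjusted p = 0.09995). Cd47, an integrin-associated gene, had 56.1, 55.5 and 62.0 CPM with spironolactone, against 69.8, 61.8 and 62.5 CPM with non-loaded microspheres (−0.16 ± 0.08, edgeR, adjusted p = 0.311).

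Il18 encodes a cytokine of the interleukin-1 family that caspase-1 cuts into its active form. It was counted 13, 18 and 10 times in the spironolactone libraries, against 8, 5 and 11 times in the non-loaded libraries. In CPM the values were 1.21, 1.44 and 0.903 with spironolactone and 0.809, 0.436 and 0.905 with non-loaded microspheres. Spironolactone replicates 1 and 2 were the highest of the 6 and non-loaded replicate 2 the lowest, while spironolactone replicate 3 lay at the level of non-loaded replicate 3. The log2 fold change of 0.72 ± 0.44 was the largest of the set and the least certain (edgeR, unadjusted p = 0.118, adjusted p = 0.455), with an interval of 0.868-fold to 3.15-fold. On log2(TPM + 1) with limma the unadjusted p was 0.0375 and the adjusted p 0.319. The summed counts were 41 with spironolactone (95% Poisson interval 29.4 to 55.6) and 24 with non-loaded microspheres (15.4 to 35.7). These intervals cover counting error only and not the spread between samples. In the GRCr8 annotation Bco2 and Tex12 overlap Il18, and if strand was not used in counting their reads cannot be told apart from those of Il18.

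Of 27 matched genes of the interleukin-1 family and inflammasome, 10 were tested and 0 passed. Their median log2 fold change was 0.16, with 8 above 0 and 2 below. Casp1, the gene of the enzyme that activates interleukin-18, was counted 18, 20 and 8 times with spironolactone, against 9, 3 and 10 times with non-loaded microspheres, with overlapping groups (1.01 ± 0.49, edgeR, adjusted p = 0.333). Il18bp, the gene of the secreted protein that neutralises interleukin-18, differed by 0.30 ± 0.30 (edgeR, adjusted p = 0.685). The receptor gene Il18r1 was counted at most 3 times, and Il1b at most 4 times. Il33, which encodes an alarmin of the same family, was abundant, with 149, 146 and 159 CPM with spironolactone, against 133, 141 and 127 CPM with non-loaded microspheres. Its groups did not overlap, and it did not pass (0.18 ± 0.06, edgeR, adjusted p = 0.143).

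Of 30 matched further target genes of NF-κB, 22 were tested, 0 rose and 1 fell, with a median log2 fold change of 0.03. The gene that fell was Gadd45b, a stress response gene that NF-κB induces and that other stress pathways control as well. It had 36.0, 36.9 and 32.4 CPM with spironolactone, against 49.0, 45.4 and 43.1 CPM with non-loaded microspheres, with no overlap (log2 fold change −0.38 ± 0.09, edgeR, adjusted p = 0.0262). Leaving out a library ended the call in 4 of 6 cases, with an adjusted p of 0.0817 without spironolactone replicate 2, 0.124 without spironolactone replicate 3, 0.137 with non-loaded replicate 1 left out and 0.0838 with non-loaded replicate 2 left out. It also did not pass on log2(TPM + 1) with limma (0.0782).

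**Figure D4:**
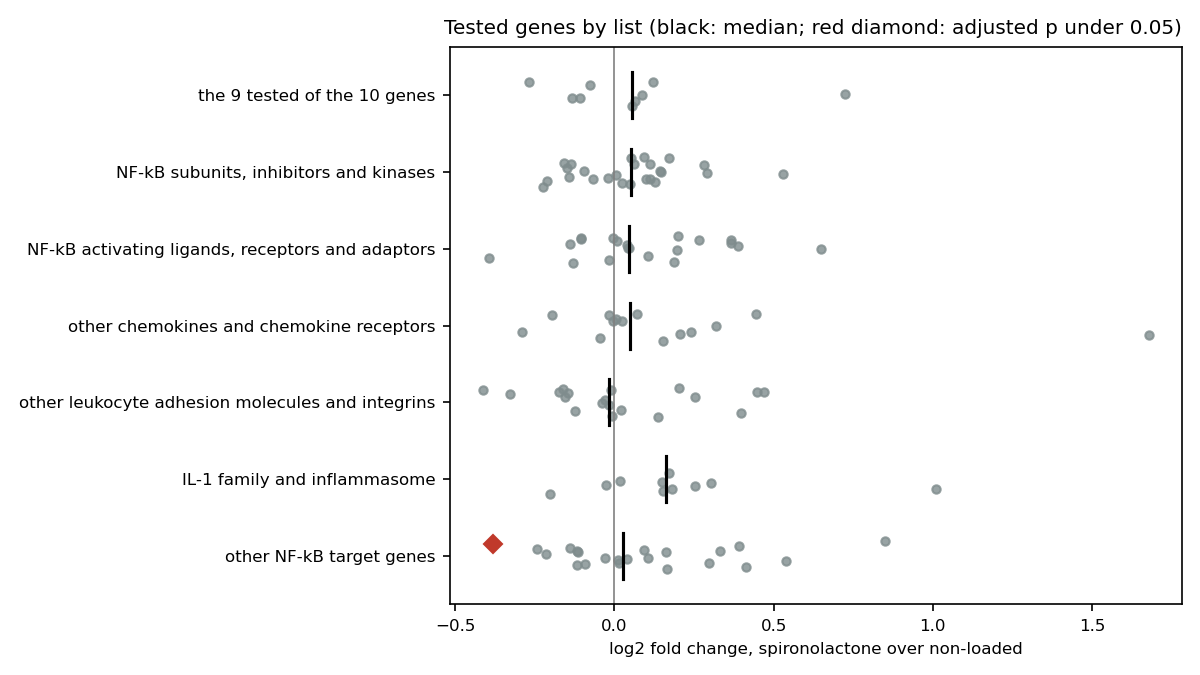
Log2 fold changes (horizontal axis; positive means higher with spironolactone) of the tested genes of each list, 1 point per gene with vertical jitter, a black line at the list's median and a red diamond for an adjusted p under 0.05. Only Gadd45b is a diamond, and the medians lie between −0.02 and 0.16.

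Over the 6 pathway lists together, 110 of 194 matched genes were tested, 0 rose and 1 fell. An unadjusted p under 0.05 was reached by 9 higher and 6 lower genes, which is 15 of 110 beside 15.8% of all tested genes. In CPM the groups did not overlap for 16 of the 110 (7 higher and 9 lower), beside 20.9% of all tested genes (11.4% higher and 9.48% lower). Genes named above for the smallest p of a list are more likely to be among these 16. The median log2 fold change was 0.04, with 66 genes above 0 and 44 below, beside 6532 above and 6710 below over all tested genes.

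**Figure D5:**
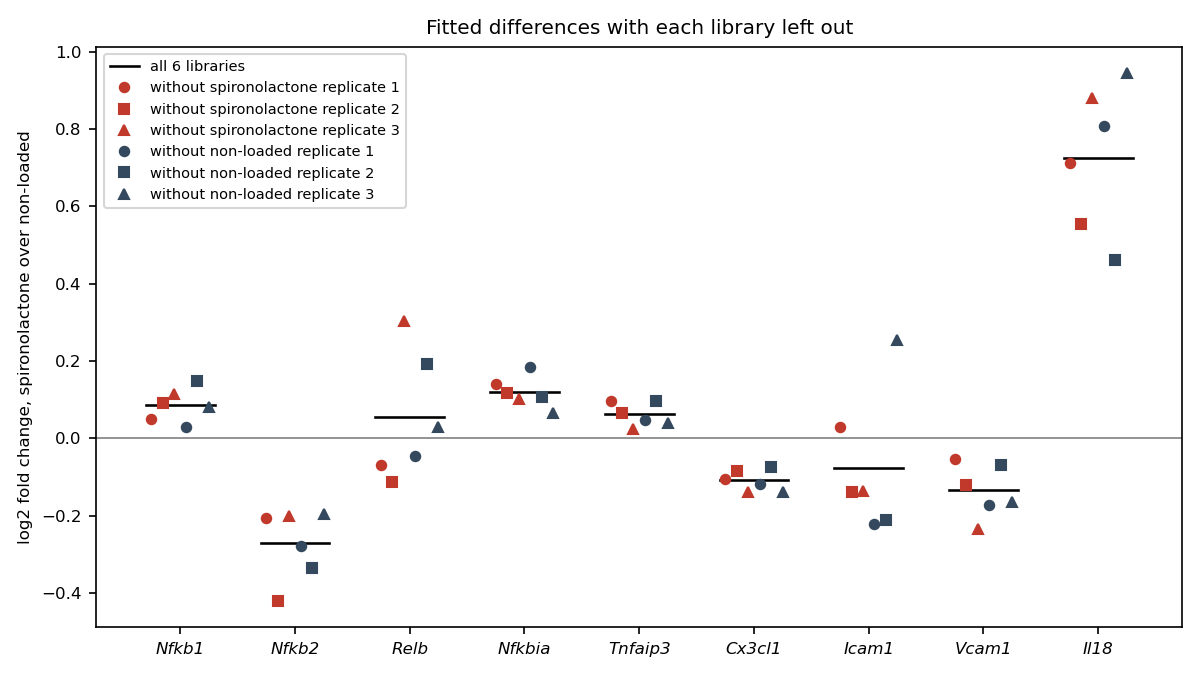
Log2 fold changes of the 9 tested genes (vertical axis; positive means higher with spironolactone) with all 6 libraries (black line) and with each library left out (red: a spironolactone library left out; dark: a non-loaded library left out; shapes give the replicate). Relb and Icam1 cross 0, and the other 7 genes stay on 1 side.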

How the data were processed

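RNA had been isolated from snap-frozen neuroretinas on columns with DNase treatment and made into libraries with a stranded mRNA kit, per the labels' protocols. The submitters' processing notes name RSEM 1.2.28, STAR 2.5.3a, Trimmomatic, FastQC and the genome build rn6, without saying what each did. For the annotation version and for strand use in counting, the setting is not given in the sources used here. Per the file headers, the authors deposited an RSEM gene table per sample with expected counts (unnormalised), TPM and FPKM. FPKM was not used here.

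Expected counts were rounded to whole numbers, since 0.437% to 0.469% of values per library were fractional. Genes were kept by edgeR's filterByExpr (13242 of 28358 genes, at least 99.9% of each library's counts) and compared with edgeR 4.0.16 in R 4.3.3 by the two-sided quasi-likelihood test (glmQLFit and glmQLFTest) after TMM scaling. P-values were adjusted by Benjamini-Hochberg across the 13242 genes, and 0.05 was the threshold. Standard errors were computed by dividing the absolute log2 fold change by the root of F. Intervals are 95%. The test was checked on simulated counts. No pair of libraries agreed within counting noise: the chi-square per gene ran over 4.00 to 16.0.

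The groups came from the labels' treatment field, and replicate numbers follow accession order. The genes described and the 6 pathway lists (201 names, 194 matched) were chosen from pathway knowledge with earlier results of these data known, and so were the alternatives. Beside the 10 genes, each list's called genes, or else its 2 with the smallest p, and 13 partner genes were named by rule. Others (Vwf, Tnfrsf1a, Cxcl12, Cxcl14, Sele, Selp, Il1b, Il6, Ccl3, S100a9 and genes listed at 0) were named for their role or after their values were seen. Alternatives used RLE, upper quartile or no scaling factors, DESeq2 1.42.0, limma 3.58.1 (voom, with and without sample weights, and limma-trend on log2(TPM + 1) and log2(TPM + 0.1)), robust shrinkage, no filter, a filter of 1 CPM in all 6 samples, an effective length offset, a threshold of 0.1 and each library left out. Some results are not reported here.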

Additional observations from a re-analysis of the deposited data

How the results depend on the processing

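Under every alternative run, 0 of the 10 genes passed (DESeq2 gave an adjusted p for 4 of the 9 tested), and 7 of the 9 tested genes kept their direction. With libraries left out, Relb ranged from −0.11 to 0.30 and Icam1 from −0.22 to 0.25 on the log2 scale, and of the partner genes Itgb1 from −0.0901 to 0.12 and Adam17 from −0.0663 to 0.13. Itgb1 was also reversed with sample weights in limma-voom (−0.013). The pathway genes called were 1 in the edgeR test with all libraries, 3 with no filter (Gadd45b and Tnip2 among them), 0 on log2(TPM + 1) and 0 on log2(TPM + 0.1) with limma, 4 at a threshold of 0.1 (Ccl6, Gadd45b, Jam3 and Tnip2) and 0 to 2 with a library left out. Over all genes, 348 were called (71% higher), against 602 with no filter, 593 at a threshold of 0.1, 100 on log2(TPM + 1) (82% higher), 95 on log2(TPM + 0.1) (83.2% higher) and 111 (without spironolactone replicate 2) to 621 (without spironolactone replicate 1) with a library left out. Other scalings moved the median of all genes by less than 0.1. The causes were not tested. No paired analysis was possible because the labels give no replicate numbers shared between the groups.

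Depth limits the rare genes: Ccl2, most chemokines and the selectins could not be tested, and the intervals of Il18, Relb and Nfkb2 reach past a 1.5-fold difference. For no gene does the absence of a call show the absence of a change.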

Other observations

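Of the 84 pathway genes below the filter on low counts, 67 had a count in at least 1 library. The groups did not overlap in CPM for 3 of these 67 (4.48%), all higher with spironolactone. Over all 4228 genes below the filter with a count, 6.05% did not overlap, 3.29% higher and 2.77% lower. The interferon-inducible chemokine genes Cxcl9 and Cxcl11 were counted 5, 10 and 3 times and 3, 2 and 7 times with spironolactone, against 1, 0 and 3 times and 1, 1 and 1 times with non-loaded microspheres. For Cxcl9, replicate 3 of both groups had 3 counts, and only the scaling to CPM (0.271 with spironolactone and 0.247 with non-loaded microspheres) set them apart. Il1rn, the gene of the interleukin-1 receptor antagonist, was counted 8, 10 and 14 times with spironolactone, against 6, 2 and 4 times with non-loaded microspheres. These counts were picked out after they were seen and carry no test.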
